A study of Rattus norvegicus with 5 samples.

Results

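Aif1, Itgam, Csf1r, Ptprc and Cd68 are genes by which microglia and other myeloid cells are commonly recognised. These 5 genes, of 35495 features in the tables, were followed in RNA of microglia from rat offspring. They were chosen by their Ensembl identifiers (Aif1 ENSRNOG00000000853, Itgam ENSRNOG00000019728, Csf1r ENSRNOG00000018414, Ptprc ENSRNOG00000000655 and Cd68 ENSRNOG00000037563), and the symbols were given with that choice, because the files hold identifiers only. The libraries were 2 from offspring of dams that received the control vehicle adenovirus (control 1 and control 3) and 3 from offspring of dams that received adenovirus containing the CYP11A1 gene (CYP11A1 1, 2 and 3). All animals were Sprague Dawley rats. The sample labels give an age of 3 months, the study's methods give a younger age, and the study used only males for sequencing. Every dam, control dams included, had a virus injected into the tail vein during gestation, with a construct that carried a CMV promoter and a green fluorescent protein, so that the gene was not directed at microglia or at the offspring. The cells were enriched on Percoll gradients from minced brain and were not sorted. The sources used here do not say whether the libraries came from separate litters, and p-values then measure only the spread between these 5 libraries.

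Microglia are the resident macrophages of the brain and need signals through the colony stimulating factor 1 receptor, encoded by Csf1r, to survive. Ptprc encodes CD45, a membrane phosphatase of nucleated blood cells that acts on Src family kinases, and resting microglia are known to carry less of it than other leukocytes. Itgam encodes CD11b, which pairs with the beta 2 integrin chain to form complement receptor 3 and was the protein the study stained to identify its cells. Aif1 encodes Iba1, a calcium-binding protein of membrane ruffles and phagocytic cups, and Cd68 encodes a heavily glycosylated protein of late endosomes and lysosomes. None of the 5 separates microglia from other macrophages. Genes that would do so, and markers of other cell types, were not analysed here, and their part in the results was not tested.

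The sequence before the start of a gene holds part of what directs its expression. PU.1, a transcription factor of the ETS family on which the myeloid lineage depends, binds purine-rich sites with the core GAGGAA. RefSeq promoter windows in build GRCr8 were matched by symbol for 4 of the 5 genes (Itgam, Csf1r, Ptprc and Cd68), and the 250 bases before the start were searched on both strands. The motif GAGGAA, or TTCCTC on the other strand, was present in 4 of these 4 windows, and 23.3% of 33465 rat promoter windows of the same length held it. Itgam and Csf1r had 2 matches each, and Ptprc and Cd68 had 1 each. The windows of Itgam, Cd68 and Ptprc are shown as examples of where this shared motif lay, with the matches in capitals. The Csf1r window is not shown.
Itgam, chr1:192089342-192089591 (+ strand): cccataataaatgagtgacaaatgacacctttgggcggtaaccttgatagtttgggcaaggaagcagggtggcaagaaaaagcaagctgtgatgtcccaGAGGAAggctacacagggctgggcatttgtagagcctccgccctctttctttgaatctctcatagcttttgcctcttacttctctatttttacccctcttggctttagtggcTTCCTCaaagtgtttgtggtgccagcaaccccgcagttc
Cd68, chr10:54882442-54882691 (- strand): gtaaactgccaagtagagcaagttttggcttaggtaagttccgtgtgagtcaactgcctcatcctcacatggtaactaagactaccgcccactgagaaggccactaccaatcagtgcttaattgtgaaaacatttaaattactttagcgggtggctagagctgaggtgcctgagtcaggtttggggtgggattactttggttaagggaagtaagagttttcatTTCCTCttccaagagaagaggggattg
Ptprc, chr13:52259747-52259996 (- strand): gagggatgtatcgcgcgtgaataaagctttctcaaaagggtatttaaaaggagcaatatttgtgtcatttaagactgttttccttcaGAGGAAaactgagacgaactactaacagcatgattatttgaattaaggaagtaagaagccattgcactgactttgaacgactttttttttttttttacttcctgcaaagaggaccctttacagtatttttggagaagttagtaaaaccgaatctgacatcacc
The matches lay 151 and 39 bases before the start in Itgam, 27 bases before it in Cd68 and 163 bases before it in Ptprc. A C/EBP type motif (TTGCNNAA, on either strand, found in 9.22% of all windows) occurred in Itgam alone of these 4 windows, 199 bases before the start. The letters of a TATA box (TATAAA, on either strand, in 12.9% of all windows) were not found in any of the 4. A match of letters is a description of sequence and was not measured as a binding site here.

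The libraries held between 9623896 and 13624545 counts, and the floor of 3 counts corresponded to 0.22 to 0.312 CPM, a unit that expresses counts relative to the library's total. Control 1 and CYP11A1 3 had the highest totals but the fewest features with a count, 12042 and 10766 against 14953 to 16969 in the other libraries. The 10 most counted features took 37.5% to 65.4% of a library. Because of this uneven composition, CPM were also scaled with the TMM factors of edgeR (0.615 to 1.35), and the scaled values are called normalized CPM. Intervals on counts are exact Poisson intervals at the 95% level and cover counting error only, since reads without molecular identifiers are not independent molecules.

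The 5 genes differed widely in level. On the scale of FPKM, which divides by feature length, Aif1 was the highest in all 5 libraries and Ptprc was next in all 5. The median FPKM over the 5 libraries was 1721 for Aif1, 24.9 for Ptprc, 7.66 for Csf1r, 2.75 for Itgam and 0.438 for Cd68. Aif1 exceeded Ptprc by 39.5-fold to 131-fold in FPKM within a library. The distance between Ptprc and Csf1r was smaller, and the FPKM of Csf1r was between 0.149 and 0.841 times that of Ptprc. Itgam, the gene of the stained protein, was below Csf1r in FPKM in all 5 libraries, at 0.0741 to 0.639 times its level. The stain was of protein whereas FPKM is of RNA, and they were not compared here. Cd68 was below Itgam in 3 libraries and above it in control 1 and CYP11A1 3, so these neighbours had no fixed order. In CYP11A1 3 Cd68 was also above Csf1r.

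**Figure D1:**
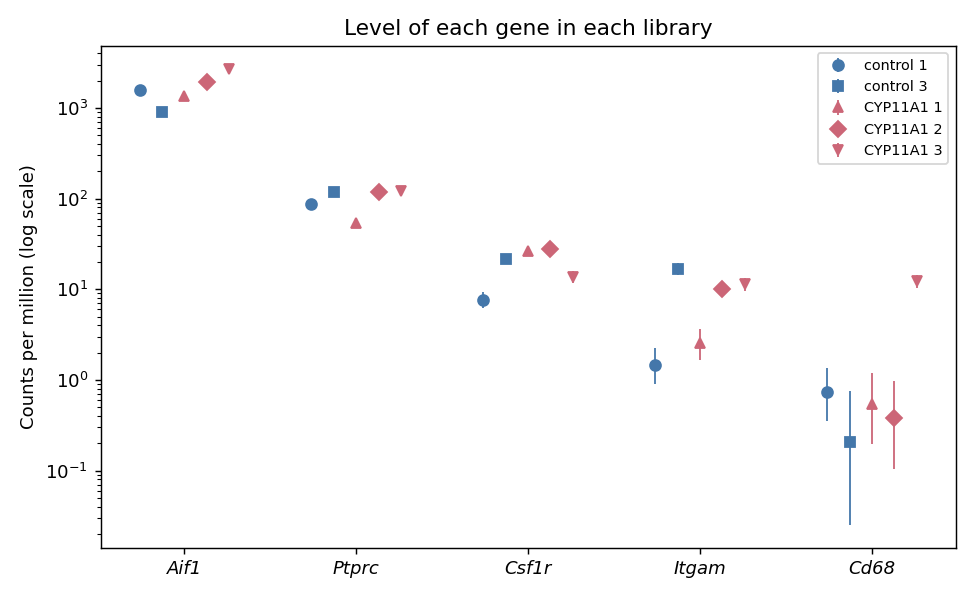
CPM (log axis) of the 5 genes in each library, with control libraries in blue and CYP11A1 libraries in red, and bars for exact 95% Poisson intervals of the count. Aif1 lies between 912 and 2683 CPM in all libraries, whereas Cd68 is under 1 CPM except in CYP11A1 3.

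Aif1 was among the most abundant transcripts of every library. It ranked 60 and 94 by FPKM in control 1 and control 3, and 64, 47 and 38 in CYP11A1 1, 2 and 3. It took from 0.0912% (control 3) to 0.268% (CYP11A1 3) of all counts and 85.2% to 94.4% of the counts of the 5 genes together. Ptprc stood above 85.6% to 92.5% of the features detected in a library. Csf1r stood above 65.5% to 89.6%, and Itgam above 31.6% to 78.0%. Cd68 stood above 17.3% to 46.7% of the detected features in 4 libraries and above 77.0% in CYP11A1 3. Set against the label of microglia, Aif1, Ptprc, Csf1r and Itgam were above the floor of 3 counts in every library. Of all 35495 features, 6483 had 3 or more counts in every library, so passing this floor does not identify the cells. Itgam was lowest in control 1 and CYP11A1 1, at 1.47 and 2.54 CPM. Cd68 was close to the floor in 4 of the 5 libraries.

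**Figure D2:**
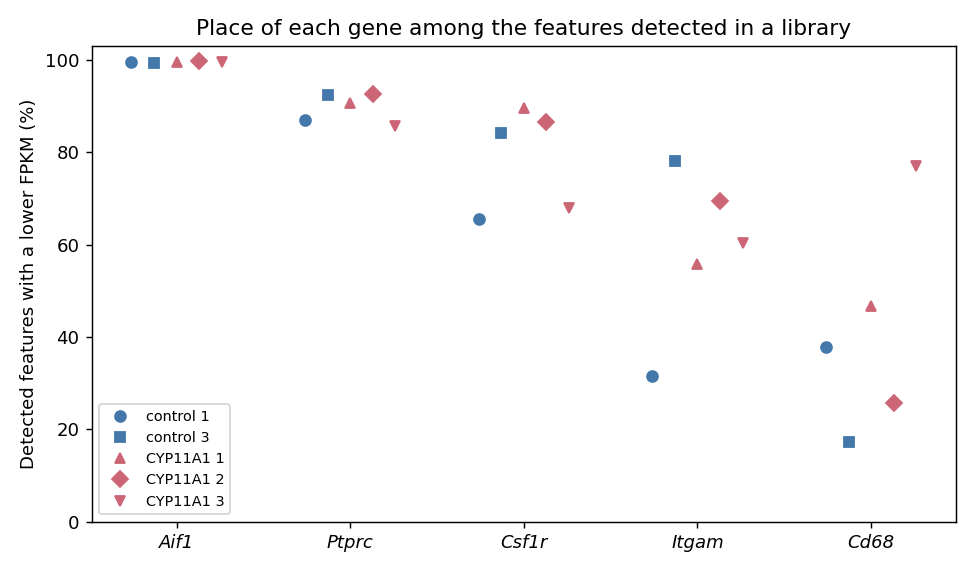
Share of the features detected in a library (%) that had a lower FPKM than each of the 5 genes. Aif1 sits above 99.4% to 99.7% of them in every library, and Itgam and Cd68 spread over the widest ranges.

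The comparison between the groups asks whether the level of these genes differed in offspring of dams that received the CYP11A1 adenovirus. No gene of the 5 was called. Of the 5, 4 passed the filter on low counts and were tested, and 0 of these 4 passed the threshold of 0.05 on the adjusted p, for which edgeR's quasi-likelihood p-values were corrected over all features by the method of Benjamini and Hochberg. The background was 0 of 10346 features (0%). At an unadjusted p under 0.05 the same test counted 439 features (4.24%) and 0 of the 4 genes. DESeq2, which tested 5 of 5, called 12 of 21060 features (0.057%) and 0 of the 5 genes. Among the 4 tested genes 2 had a positive and 2 a negative log2 fold change, with a median of 0.26, and among all features tested 5847 were positive and 4499 negative, with a median of 0.15. The groups overlapped in normalized CPM for all 5 genes, and 14.4% of the features tested had groups that did not overlap. In these bulk samples fewer cells of a type and less RNA per cell cannot be told apart.

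Aif1, the gene of Iba1, had 21731 counts in control 1 and 8773 in control 3, against 14909, 20481 and 35513 in CYP11A1 1, 2 and 3. Its normalized CPM was 1653 and 861 in the controls. It was 2202, 1445 and 2297 in CYP11A1 1, 2 and 3. Control 3 was the lowest library, and 3 of 3 CYP11A1 libraries lay above the control mean, but control 1 lay above CYP11A1 2. In CPM without TMM factors control 1, at 1595, lay above CYP11A1 1, at 1350, and below CYP11A1 2, at 1949. The group means were 1257 ± 560.3 normalized CPM (SD, n = 2) in the control group and 1981 ± 467 (SD, n = 3) in the CYP11A1 group. The log2 fold change was 0.66 ± 0.65 (SE), with a 95% interval from -0.77 to 2.08 and an adjusted p of 1 (edgeR's quasi-likelihood test). Without control 3 the log2 fold change was 0.20, and without control 1 it was 1.19, so the size of the difference turned on which control was kept.

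Ptprc, the gene of CD45, varied least of the 5. It had 1192 and 1154 counts in control 1 and control 3, and 590, 1260 and 1602 in CYP11A1 1, 2 and 3. Its normalized CPM was 90.7 and 113 in the controls and 87.1, 88.9 and 104 in the CYP11A1 libraries. The highest library was 1.3 times the lowest on this scale. Among 642 tested features with a mean normalized CPM within 2-fold of its own, 3 (0.467%) had a lower SD over the 5 libraries on the log2(normalized CPM + 1) scale, where the SD of Ptprc was 0.16 and the median of those features was 0.83. This evenness depended on the scaling. In CPM without TMM factors Ptprc was at 53.4 in CYP11A1 1 against 87.5 to 121 in the other libraries, its SD was 0.51 and 15.3% of the same features varied less. The group means were 102 ± 15.9 normalized CPM (SD, n = 2) in the control group and 93.2 ± 9.06 (SD, n = 3) in the CYP11A1 group. The log2 fold change was -0.13 ± 0.68 (SE), with a 95% interval from -1.61 to 1.35 and an adjusted p of 1 (edgeR's quasi-likelihood test).

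Csf1r, the gene of the receptor for CSF1, had 104 and 208 counts in control 1 and control 3. The CYP11A1 libraries 1, 2 and 3 had 291, 292 and 182 counts. Its normalized CPM was 7.91 and 20.4 in the controls and 43.0, 20.6 and 11.8 in the CYP11A1 libraries. The 2 lowest libraries, control 1 and CYP11A1 3, were those with the fewest features detected, and whether this had a part in the Csf1r values was not tested. The group means were 14.2 ± 8.84 normalized CPM (SD, n = 2) in the control group and 25.1 ± 16.1 (SD, n = 3) in the CYP11A1 group, and the highest library of the CYP11A1 group was 3.65 times its lowest. This order turned with the scaling: in CPM without TMM factors Csf1r was at 26.4, 27.8 and 13.7 in CYP11A1 1, 2 and 3, so that CYP11A1 2 was the highest and the ratio was 2.02. The log2 fold change was 0.82 ± 0.89 (SE), with a 95% interval from -1.12 to 2.75 and an adjusted p of 1 (edgeR's quasi-likelihood test). It was 0.62 without control 1 and CYP11A1 3. Left out singly, control 1 lowered it to 0.27, CYP11A1 1 lowered it to 0.21 and control 3 raised it to 1.61.

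Itgam, the gene of CD11b, differed most between the controls. It had 20 counts in control 1, with a Poisson interval from 12.2 to 30.9, and 163 counts in control 3, with an interval from 139 to 190. The CYP11A1 libraries 1, 2 and 3 had 28, 106 and 151 counts. Its normalized CPM was 1.52 and 16 in the controls and 4.13, 7.48 and 9.77 in the CYP11A1 libraries, so that the controls held the lowest and the highest library and the CYP11A1 libraries lay between them. Control 3 was 10.5 times control 1, a larger ratio than the 2.36 within the CYP11A1 group (11.5 against 4.5 in CPM without TMM factors). The group means were 8.76 ± 10.2 normalized CPM (SD, n = 2) in the control group and 7.13 ± 2.83 (SD, n = 3) in the CYP11A1 group. The log2 fold change was -0.25 ± 1.02 (SE), with a 95% interval from -2.48 to 1.97 and an adjusted p of 1 (edgeR's quasi-likelihood test). Its direction changed with the control that was kept, at 2.20 without control 3 and -1.16 without control 1, and it was 0.01 without CYP11A1 1.

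Cd68, the lysosomal gene, was close to the floor everywhere but in a single library. It had 10 and 2 counts in control 1 and control 3, and 6, 4 and 161 in CYP11A1 1, 2 and 3. CYP11A1 3 held 88.0% of its 183 counts. Of 9629 features with at least 50 counts in all, 41 (0.426%) had at least that percent in CYP11A1 3. Cd68 reached 50 counts only through CYP11A1 3, since the other 4 libraries held 22. The library and the percent were taken from Cd68 itself, so this share is a description and not a test. The CPM of Cd68 there was 12.2, with a Poisson interval from 10.4 to 14.2, and the highest upper limit in the other 4 libraries was 1.35 CPM. The CPM of CYP11A1 3 was 16.6 times that of control 1 (95% interval from counting error, 8.78 to 35.2) and 58.5 times that of control 3 (15.9 to 487). Within its own group it was 22.4 times CYP11A1 1 (10.1 to 61.9) and 32.0 times CYP11A1 2 (12.2 to 119). In normalized CPM the same ratios were 13.7 and 53.1 against control 1 and control 3, and 11.8 and 36.9 against CYP11A1 1 and 2. CYP11A1 3 was also the library with the fewest features detected, and the part of this in the Cd68 value was not tested.

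Cd68 did not pass the filter and has no value in the main test. The group means were 0.478 ± 0.399 normalized CPM (SD, n = 2) in the control group and 3.86 ± 5.68 (SD, n = 3) in the CYP11A1 group. The log2 ratio of these means was 3.01, and it was 0.29 without CYP11A1 3. It was 4.30 without control 1, 2.34 without control 3 and 1.57 without both control 1 and CYP11A1 3. Without the filter on low counts, edgeR's quasi-likelihood test gave Cd68 a log2 fold change of 2.92 ± 1.51 (SE) and an adjusted p of 0.964. Under that setting 9 of 21072 features (0.0427%) were called.

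**Figure D3:**
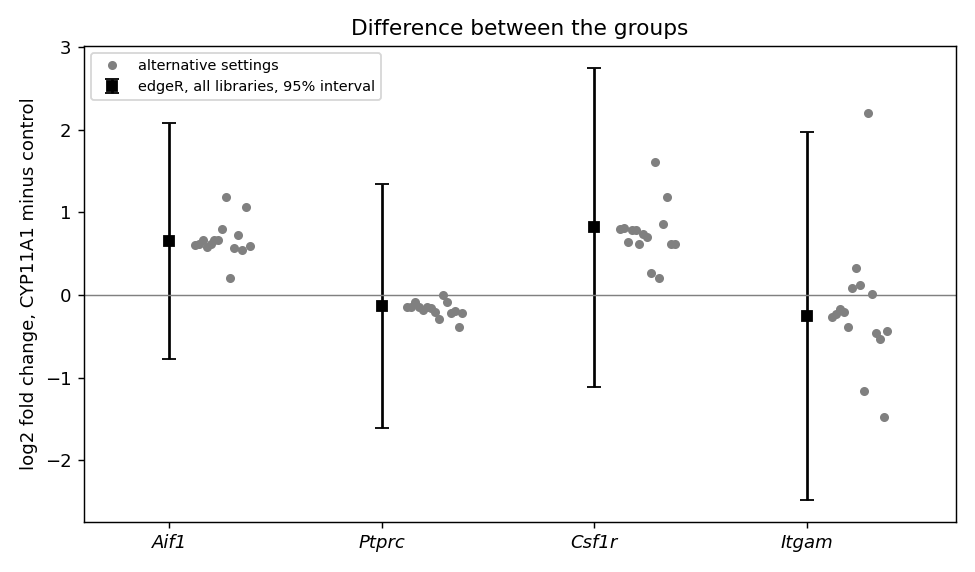
Log2 fold change (CYP11A1 minus control) of the 4 genes that passed the filter on low counts, with the 95% interval of edgeR's quasi-likelihood test (black squares) and the values under 15 alternative settings each (grey points, no error shown). All 4 intervals include 0, and the Itgam points fall on both sides of it.

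The 5 genes did not keep a common pattern over the libraries. In normalized CPM, control 1 was the lowest library for Itgam and Csf1r but not for the other genes. Control 3 was the lowest for Aif1 and Cd68 and the highest for Itgam and Ptprc. CYP11A1 1 was the highest for Csf1r and the lowest for Ptprc, and CYP11A1 3 was the highest for Aif1 and Cd68. Without TMM factors the highest library was CYP11A1 2 for Csf1r and CYP11A1 3 for Ptprc, and the other places named here were the same. The likeness of profiles was measured as the root mean square difference of log2(normalized CPM + 1) over the 5 libraries, each gene centred on its own mean. The nearest pair was Aif1 and Ptprc, at 0.60, and the farthest was Csf1r and Cd68, at 1.63. Among 2794 other tested features with a mean of at least 10 normalized CPM, 705 (25.2%) were nearer to Aif1 than Ptprc was, and 924 (33.1%) were nearer to Ptprc than Aif1 was. Likewise 378 (13.5%) were nearer to Itgam than its nearest member, Ptprc, and 784 (28.1%) were nearer to Csf1r than Ptprc was. The features most like each gene were known by identifier only, because their symbols were not at hand.

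**Figure D4:**
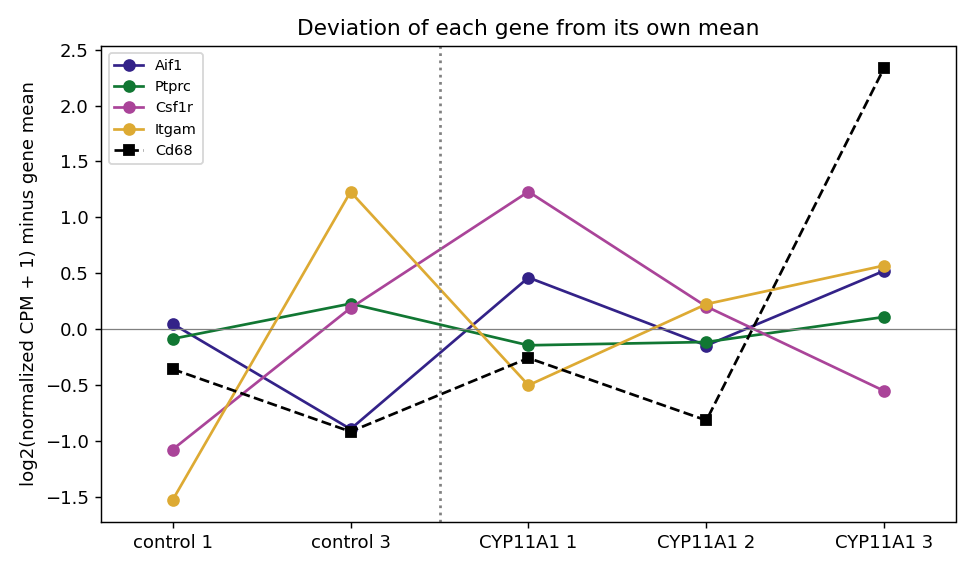
Deviation of each gene from its own mean over the 5 libraries, in log2(normalized CPM + 1), with controls left of the dotted line. The joining lines only guide the eye, and the replicates have no order. Ptprc stays within a narrow band, Itgam separates the controls, and Cd68 leaves the others in CYP11A1 3.

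Ratios between the genes within a library do not depend on how libraries are scaled. The groups overlapped in 10 of the 10 ratios of FPKM among the 5 genes. These ratios share genes and are not independent, and the same count was not made for ratios among other features. In 9 of the 10, the distance between the 2 controls was larger than the difference between the group means on the log2 scale. The exception was the ratio of Aif1 to Cd68, with 11.51 and 12.52 on the log2 scale in the controls and 11.70, 12.74 and 8.21 in the CYP11A1 libraries, where the CYP11A1 3 library set the difference. The ratio of Aif1 to Itgam ranged most widely between the controls among the ratios without Cd68, at 4295-fold in control 1 and 213-fold in control 3. The ratio of Aif1 to Ptprc was 94.6 and 39.5 in the controls and 131, 84.4 and 115 in CYP11A1 1, 2 and 3, with control 1 again among the CYP11A1 values.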

How the data were processed

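RNA from microglia of 2 control and 3 CYP11A1 offspring was amplified as full-length cDNA, according to the study's methods, whereas the labels name a small RNA kit. The study gives n = 3 for each group, while the values available here cover 2 controls. The authors deposited raw read counts per feature and FPKM, and the submitters' processing notes name HISAT2 2.0.4 and HTSeq 0.9.1. The genome build and annotation are not given in the sources used here, nor is the use of strand in counting. Each deposited FPKM of these genes was the count over library total and a fixed feature length (927 bp for Aif1, 3664 bp for Itgam, 2822 bp for Csf1r, 4812 bp for Ptprc and 1241 bp for Cd68). Amplification of low amounts of RNA can widen the spread between libraries.

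Columns were matched to samples by title. Counts were compared with edgeR's quasi-likelihood test (glmQLFit, glmQLFTest) after TMM normalization and filterByExpr (minimum count 10), with the group as the only term and Benjamini-Hochberg adjustment over 10346 features. The SE was taken from the log2 fold change and its F statistic. The fits used edgeR 4.0.16, DESeq2 1.42.0 and limma 3.58.1 in R 4.3.3. Levels and figures were computed with pandas 2.3.3 and matplotlib 3.10.9 in Python 3.11.15. The test was tried on simulated counts.

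The 5 genes, the lists and the alternatives were chosen with earlier results of these data known. The plan covered the 5 genes, the most abundant genes of 17 pathway and cell type lists, and the genes with the most similar profiles. The lists needed symbols, and 0 of 35495 features could be matched by identifier in the symbol table at hand, so they were not analysed here. The alternatives were DESeq2, RLE factors, library size alone, totals without the 10 most counted features, other filters on low counts, limma on log2(FPKM + 1) or log2(FPKM + 0.1) (FPKM of at least 1 in 2 libraries), a replicate block, an unadjusted threshold, and leaving out libraries.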

Additional observations from a re-analysis of the deposited data

How the results depend on the processing

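No alternative called any of the 5 genes among those it tested, and the count of 0 says little about stability, because few features passed the adjusted threshold under any of them. The number of features called was 0 in edgeR's test and in 13 of the alternatives. It was 12 with DESeq2, 9 without a filter on low counts and 439 at the unadjusted threshold. Aif1 and Csf1r kept a positive log2 fold change in the 15 alternatives each, from 0.20 to 1.19 and from 0.21 to 1.61, and Ptprc kept a negative one, from -0.39 to -0.004. The alternatives reused the same libraries or some of them, so a kept sign is not independent support. How many of all features kept their sign was not counted. Itgam was reversed in 5 of 15. Its log2 fold change was 0.08 and 0.33 with limma on log2(FPKM + 1) and log2(FPKM + 0.1). With each library left out in turn it ranged from -1.16 to 2.20, and it was 0.01 without CYP11A1 1. Its lowest value, -1.47, came without both control 1 and CYP11A1 3. The cause was not tested. When a control was left out, the remaining control was assumed to vary like the CYP11A1 libraries. The adjusted p was at least 0.647 for every tested gene and alternative.

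The labels number the libraries, and 1 and 3 occur in both groups. Across 10346 features the deviations of same-numbered libraries correlated at r = -0.266, a single contrast per group. The sources used here describe no pairing, and whether same-numbered libraries shared a litter or a day was not tested. With a replicate block on these 4 libraries, 0 features passed the adjustment (110 at an unadjusted p under 0.05), and the log2 fold change of Itgam was 0.12. The coefficient of variation between libraries of a group, shared by all features, was 1.05, which limits what 2 against 3 libraries can detect.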
